A study of Mus musculus with 6 samples.

Results

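The receptors through which the hypothalamus and the stomach set growth hormone release were examined in sorted mouse pituitary cells. They are Ghrhr (which binds GHRH, the hypothalamic releasing hormone of growth hormone), Ghsr (the ghrelin receptor), the somatostatin receptors Sstr1, Sstr2, Sstr3 and Sstr5, and the orphan receptor Gpr101. These 7 genes were chosen by symbol among the 22869 genes with a symbol in the deposited table, and all 7 had a row. A symbol with several transcript rows took the row with the highest mean. RNA sequencing was done on somatotropes, the cells that make growth hormone, and on lactotropes, the cells that make prolactin, with 3 libraries of each. All 6 libraries were made from cells that FACS (fluorescence-activated cell sorting) separated from the pituitaries of hybrid mice (CD1 x C57BL/6), all female, untreated and between 6 and 8 weeks of age, and no transgene or agent is named. The unit is FPKM, the fragments of a transcript scaled by its length and by the mapped fragments of its library, so that levels can be compared between genes. The titles call each library a biological replicate. Neither the marker that was sorted on nor any pooling of animals is given in the sources used here. The p-values therefore cover only the spread between these samples, which may in part be technical.

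In the somatotrope, GHRH binds Ghrhr, a receptor coupled to the stimulatory G protein, and the resulting cyclic AMP drives both release of growth hormone and transcription of its gene. Ghrelin binds Ghsr, which signals mainly through Gq and calcium and amplifies the action of GHRH. Somatostatin binds receptors coupled to inhibitory G proteins, which lower cyclic AMP, open potassium channels and restrain secretion of growth hormone and, by some subtypes, of prolactin. Gpr101 is known from X-linked acrogigantism, in which its duplication causes growth hormone excess.

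The first sequence shown is the coding stretch of Ghrhr around codon 60, an aspartate in the extracellular part, because the dwarf little mouse lacks working receptor through a change at this residue. Capitals mark the codon.
Ghrhr, coding bases 148 to 210: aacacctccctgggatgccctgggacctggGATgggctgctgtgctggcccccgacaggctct

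The somatostatin receptors share a signature in the seventh transmembrane segment, shown for the 5 mouse genes because it is what defines the family. It was searched as TANGCNAANNNNTGNGCNAANCCN on both strands of 1 coding sequence for each of 21877 genes, and it was found in 5 of them (0.0229%), which were Sstr1 to Sstr5. Neither Ghrhr, Ghsr nor Gpr101 held these letters. Capitals mark the 19 of 48 positions at which the genes are not all the same.
Sstr1, coding bases 925 to 972: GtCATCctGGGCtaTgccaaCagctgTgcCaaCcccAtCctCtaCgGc
Sstr2, coding bases 892 to 939: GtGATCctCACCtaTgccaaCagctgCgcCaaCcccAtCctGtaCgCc
Sstr3, coding bases 922 to 969: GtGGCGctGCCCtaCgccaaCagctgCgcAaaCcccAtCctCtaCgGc
Sstr4, coding bases 880 to 927: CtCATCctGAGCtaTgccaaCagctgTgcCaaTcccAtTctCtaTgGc
Sstr5, coding bases 865 to 912: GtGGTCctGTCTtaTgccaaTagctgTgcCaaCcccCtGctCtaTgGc

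Within this stretch, Sstr1 and Sstr4 were the most alike pair at 89.6% identical bases, and Sstr3 and Sstr4 the least alike at 72.9%. Sstr2 and Sstr5, the subtypes best known in somatotropes, were 77.1% identical. Over whole transcripts, 1 of 28 pairs of these receptor genes shared any run of 25 bases, Sstr3 and Sstr5 with 17 such runs. Runs may overlap one another, so 17 is not a count of separate stretches.

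The table held 2 rows for Sstr2, which has a pair of splice forms with different tails inside the cell. The coding sequences are the same for the first 994 bases and then part. Capitals mark the bases after that point.
Sstr2, NM_001042606 (369 codons), coding bases 965 to 1039: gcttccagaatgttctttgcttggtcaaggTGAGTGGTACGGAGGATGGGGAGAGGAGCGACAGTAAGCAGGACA
Sstr2, NM_009217 (346 codons), coding bases 965 to 1039: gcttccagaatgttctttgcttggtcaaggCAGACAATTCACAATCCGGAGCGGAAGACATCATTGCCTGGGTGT

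The libraries were unequal in ways that bear on low receptors. Genes above 0 numbered from 11318 in lactotrope 3 to 18592 in somatotrope 1. Of the 11642 genes tested, 14.9% stood at 0 in lactotrope 3 and 0.232% to 2.95% in each other library, so a listed 0 is not read as absence. Replicate 1 had 6 members above 0 in both cell types and replicate 2 had 4 in both, while somatotrope 3 had 3 and lactotrope 3 had 1. In replicate 1, low values of olfactory receptor genes fell within 0.1 of whole fragments at a depth of 29250000 fragments in somatotrope 1 and 17650000 in lactotrope 1. The other 4 libraries had too few such values to assess, and their depth is unknown. Gh, which encodes growth hormone, lay at 19384 to 84909 FPKM in somatotropes and 3954 to 7623 FPKM in lactotropes, and Prl, which encodes prolactin, at 8709 to 24481 and 25171 to 195325 FPKM, so each hormone was higher in the libraries labelled for it and above 0 in those of the other cell type. Whether those transcripts came from the labelled cells or from others in the sort was not tested. Summed over 5 leukocyte markers (Ptprc, Csf1r, Cd68, Cd74, Tyrobp), the level was 241 to 5093 FPKM in somatotropes and 648 to 10293 FPKM in lactotropes. Here and below, a pair is a somatotrope and a lactotrope library with the same replicate number, a pairing that the labels do not state. The sum was higher in the lactotrope library in all 3 pairs. So were 5 of 5 members in every pair, beside 11.2% of tested genes. The corticotrope marker Pomc reached 5758 FPKM in somatotrope 3 and the posterior pituitary hormone genes Avp and Oxt 93.0 and 99.5 FPKM there, against at most 1209, 16.7 and 17.1 FPKM in any other library. Summed markers of corticotropes (95.6 to 5773 against 425 to 877 FPKM, somatotropes against lactotropes), gonadotropes (7.89 to 104 against 7.85 to 18.7), thyrotropes (308 to 1728 against 132 to 825) and erythroid cells (15.2 to 2147 against 2.95 to 1769) had no common order over the pairs. Those of stem and folliculostellate cells were higher in the somatotrope library in all 3 pairs (5.97 to 19.6 against 1.98 to 10.2 FPKM). The endothelial markers Pecam1, Plvap and Kdr summed to at most 3.12 FPKM in any library.

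Ghrhr was the only one of the 7 receptors whose libraries separated by cell type. Ghsr, Sstr2, Sstr3, Sstr5 and Gpr101 could not have separated, because each was listed at 0 in some library of both cell types. The gene lies on the plus strand of chromosome 6, between positions 55326289 and 55338524 of mm9, and no row of another gene in the table overlapped it or any other member. Its level was 110, 26.3 and 22.6 FPKM in somatotropes 1 to 3. In lactotropes it was 9.05 and 2.88 FPKM in replicates 1 and 2 and was listed at 0 in replicate 3. Every somatotrope library therefore lay above every lactotrope library. Among tested genes, 2.51% had all 3 somatotrope libraries above all 3 lactotrope libraries. In bulk libraries such as these, fewer cells of a type and less RNA per cell cannot be told apart. The sums of leukocyte markers and of stem cell markers also moved with cell type within the pairs, and their part in the Ghrhr difference was not tested.

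The mean Ghrhr level was 53.0 ± 49.4 FPKM (SD, n = 3) in somatotropes and 3.98 ± 4.62 FPKM (SD, n = 3) in lactotropes, a ratio of means of 13.3. Within pairs the somatotrope level was 12.2 times the lactotrope level in replicate 1 and 9.13 times in replicate 2, and no fold is given for replicate 3. Ghrhr stood above 99.0%, 95.2% and 95.1% of the 22869 genes in somatotropes 1 to 3. In lactotropes 1 and 2 it stood above 76.9% and 69.6% of them, so it remained above the middle of the distribution there.

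On the log2(FPKM + 1) scale, on which low levels are compressed, the somatotrope minus lactotrope difference of Ghrhr was 3.61 (SE 0.87, limma). Ranked by limma's test, it came first of all 11642 tested genes both without the replicate number as a block and with it, but its rank was 22 without somatotrope 1, 11 with no filter on low values and 6 with a pseudocount of 0.1. After Benjamini-Hochberg adjustment over all tested genes it did not pass at 0.05 (limma adjusted p = 1.00, or 0.107 with the block). It passed when libraries were weighted by their fitted spread (array weights), with a difference of 3.00 (limma adjusted p = 0.0117). The two-sided exact permutation p of Ghrhr alone was 0.1, and no smaller one is possible with 3 libraries against 3. Limma called 0 genes (0% of those tested) in either fit, with 112 genes at an unadjusted p under 0.05 (0.962%) without the block and 1271 (10.9%) with it.

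**Figure D1:**
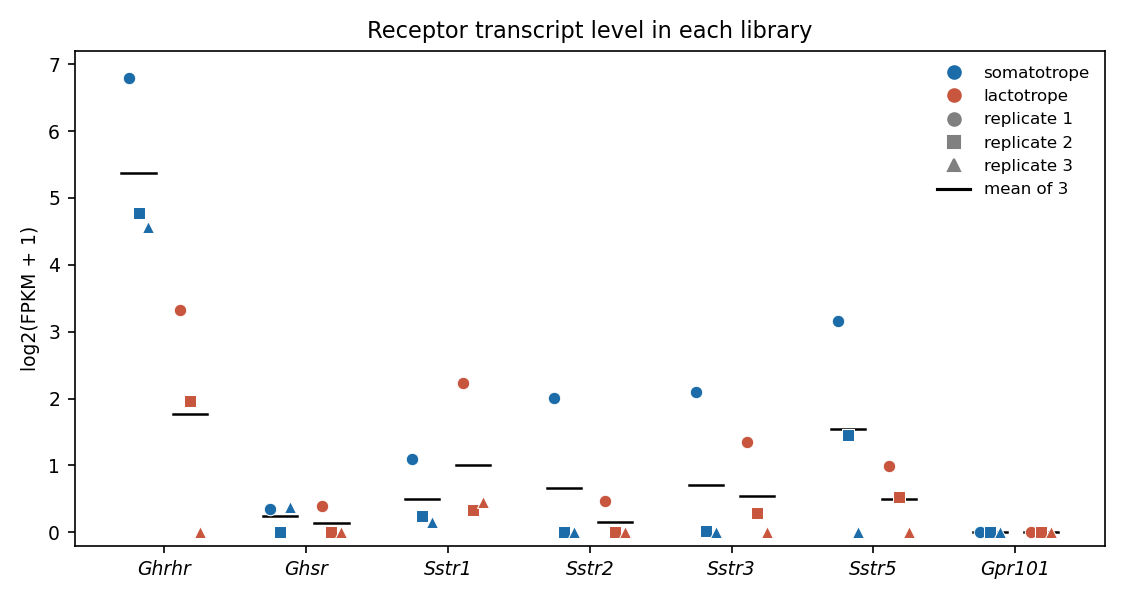
Level of each receptor as log2(FPKM + 1) in the 6 libraries, by cell type (colour) and replicate number (shape), with a black line at the mean of 3. Ghrhr is the only member whose somatotrope libraries all lie above its lactotrope libraries, Sstr1 is above 0 in all 6 libraries, and Gpr101 is listed at 0 in all 6. Members listed at 0 in some library of both cell types could not separate.

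Within each library, Ghrhr was also set against Gh and against Pou1f1, the pituitary transcription factor Pit-1, which is known to be needed for both genes. Pou1f1 was present in both cell types, at 245, 21.0 and 19.9 FPKM in somatotropes 1 to 3 and 258, 34.6 and 66.7 FPKM in lactotropes 1 to 3. The lactotrope level of Pou1f1 was above the somatotrope level in all 3 pairs, although the groups overlapped, and the difference did not pass (limma adjusted p = 1.00). The FPKM of Ghrhr was 0.449, 1.25 and 1.14 times that of Pou1f1 in somatotropes 1 to 3, and 0.0351 and 0.0832 times in lactotropes 1 and 2. The log2 ratio, with 1 FPKM added to both genes, was -0.22 ± 0.81 in somatotropes and -4.66 ± 1.44 in lactotropes (SD, n = 3). The groups did not overlap (exact permutation p = 0.1, the smallest possible, adjusted p = 0.2 over 4 ratios). The difference in this log2 ratio was 4.44, beside 3.61 for Ghrhr by itself.

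Against Gh the picture differed. For each 1000 FPKM of Gh there were 1.30, 1.36 and 0.522 FPKM of Ghrhr in somatotropes 1 to 3, and 2.29 and 0.420 FPKM in lactotropes 1 and 2, with Ghrhr listed at 0 in lactotrope 3. The groups overlapped, since lactotrope 1 had the highest value of the 6. The log2 ratio of Ghrhr to Gh, with 1 FPKM added, differed by 0.80 between the groups (exact permutation p = 0.7, adjusted p = 0.7 over 4 ratios), by -0.26 without lactotrope 3 and by 2.04 with 0.1 FPKM added instead. Lactotrope Ghrhr was 8.23% and 10.9% of somatotrope Ghrhr in replicates 1 and 2, where lactotrope Gh was 4.66% and 35.4% of somatotrope Gh. In replicate 3, lactotrope Gh was 17.6% of somatotrope Gh while Ghrhr was listed at 0.

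Ghsr (chromosome 3, 27270273 to 27276932, plus strand, mm9) was low in every library. It had 0.278 and 0.304 FPKM in somatotropes 1 and 3 and 0.32 FPKM in lactotrope 1, and it was listed at 0 in somatotrope 2 and lactotropes 2 and 3. The highest value was in a lactotrope library and the groups overlapped (exact permutation p = 1). With a mean under 1 FPKM it did not enter the fit over all genes. The log2 ratio of Ghrhr to Ghsr, with 1 FPKM added to both, was 5.13 ± 1.17 in somatotropes and 1.63 ± 1.49 in lactotropes (SD, n = 3), with no overlap (exact permutation p = 0.1, adjusted p = 0.2 over 4 ratios). Ghsr by itself differed by 0.11 on this scale. The difference in the ratio (3.50) therefore largely restates that of Ghrhr alone (3.61) and is not a separate result. Mrap2, an accessory protein that modulates the ghrelin receptor, had 9.47, 0.155 and 2.57 FPKM in somatotropes 1 to 3 and 3.49, 1.03 and 0.576 FPKM in lactotropes 1 to 3, with no common direction over the pairs.

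Among the somatostatin receptors, Sstr5 had the highest mean level in somatotropes, at 3.22 ± 4.16 FPKM, against 0.475 ± 0.496 FPKM in lactotropes (SD, n = 3). The gene occupies chromosome 17 between 25626820 and 25634233 (minus strand, mm9). Its level was 7.92 and 1.74 FPKM in somatotropes 1 and 2 and 0.989 and 0.436 FPKM in lactotropes 1 and 2, and it was listed at 0 in replicate 3 of both cell types. Both somatotropes with a value lay above both lactotropes with a value, by 8.01 times in replicate 1 and 3.99 times in replicate 2, and replicate 3 gave no order. The log2 difference was 1.03 (SE 0.80), which did not pass (limma adjusted p = 1.00). Sstr5 entered this test through somatotrope 1, without which its mean was below 1 FPKM. It was 0.22 without somatotrope 1 and 1.80 without somatotrope 3, so its size rested on those libraries. The row used stood in a nearly fixed ratio to a second transcript row of Sstr5 (NM_011425), between 1.04 and 1.06 in the 4 libraries above 0. The second row adds no separate measurement.

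Sstr2 (chromosome 11, 113485571 to 113486950, plus strand, mm9) had values above 0 in replicate 1 only. The row used (NM_009217) had 3.02 FPKM in somatotrope 1 and 0.381 FPKM in lactotrope 1, a ratio of 7.92, and 0 in the other 4 libraries. For the other splice form (NM_001042606), whose row spans exactly its 1110 coding bases, the 2.43 FPKM of somatotrope 1 correspond to 79.0 fragments (95% Poisson interval 62.5 to 98.5, counting error only) and the 0.204 FPKM of lactotrope 1 to 4 fragments (1.09 to 10.2). The row of the longer tail stood lower than that of the shorter tail in both libraries, by 1.24 and 1.87 times. Since the forms share their first 994 coding bases, how reads were divided between them is not known. The groups overlapped at 0 (exact permutation p = 1). The log2 ratio of Sstr2 to Sstr5 differed by -0.52 between the groups (exact permutation p = 0.4, adjusted p = 0.533 over 4 ratios).

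Sstr3 (chromosome 15, 78367445 to 78374775, minus strand, mm9) had no common direction. In replicate 1 it was higher in the somatotrope library, at 3.26 against 1.54 FPKM. In replicate 2 it was higher in the lactotrope library, at 0.217 against 0.0139 FPKM, and in replicate 3 it was listed at 0 in both. The groups overlapped (exact permutation p = 0.9), and the log2 difference of 0.16 turned to -0.53 without somatotrope 1 and to -0.11 without lactotrope 3.

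Sstr1 (chromosome 12, 59312791 to 59317023, plus strand, mm9) was the member above 0 in all 6 libraries and the one that leaned to lactotropes. Its level was 1.14, 0.189 and 0.11 FPKM in somatotropes 1 to 3 and 3.69, 0.265 and 0.368 FPKM in lactotropes 1 to 3. The lactotrope library had the higher level in each pair, by 3.24, 1.40 and 3.34 times, but the groups overlapped because somatotrope 1 lay above lactotropes 2 and 3. Among the 7915 genes above 0 with a mean under 1 FPKM, 3.42% were higher in lactotropes in all 3 pairs. That set includes genes listed at 0 in both libraries of a pair, which cannot have this order. Among tested genes the share was 11.2%. The log2 difference was -0.51 (exact permutation p = 0.5), and it was 0.10 without lactotrope 1.

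Summed over Sstr1 to Sstr5, the somatostatin receptor level was 15.3, 1.94 and 0.11 FPKM in somatotropes 1 to 3 and 6.61, 0.918 and 0.368 FPKM in lactotropes 1 to 3. Both libraries of replicate 1 lay above both of replicate 2, and these above both of replicate 3. The make-up of the sum differed within pairs 1 and 2. Sstr5 made up 51.6% and 89.6% of the sum in somatotropes 1 and 2 and 15.0% and 47.4% in lactotropes 1 and 2. Sstr1 made up 7.43% and 9.73% in somatotropes 1 and 2 and 55.9% and 28.9% in lactotropes 1 and 2. In replicate 3 of both cell types Sstr1 was the 1 subtype above 0, so its share of 100% there rests on a single low value. These shares were looked at after the single values were seen and were not tested. Sstr4 was listed at 0 in all 6 libraries.

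**Figure D2:**
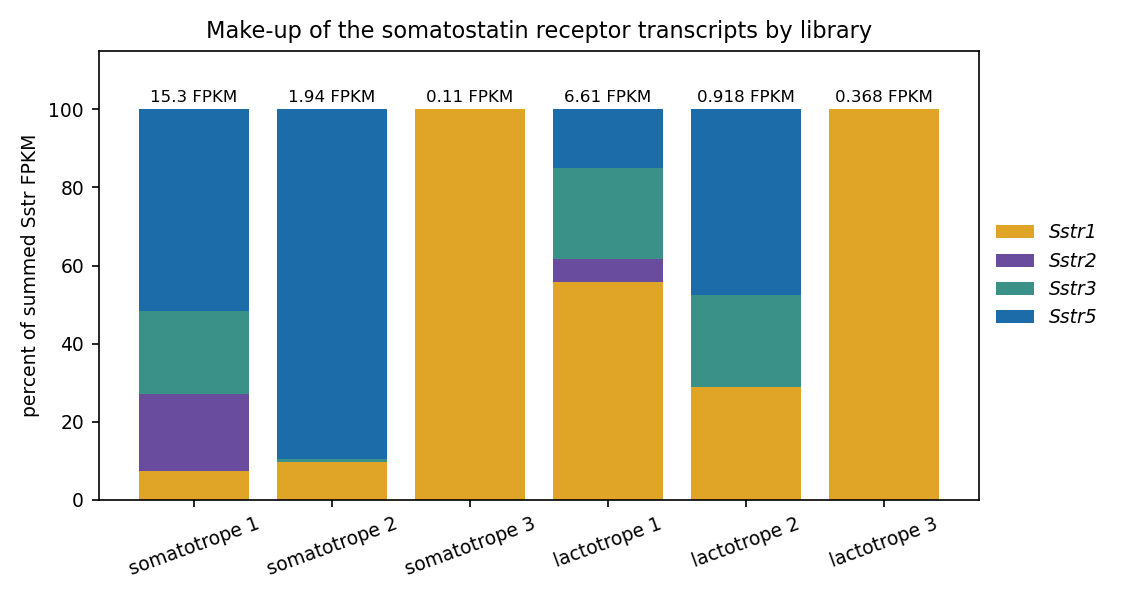
Percent of the summed FPKM of the somatostatin receptors contributed by each subtype in each library, with the sum printed above each bar. In replicates 1 and 2 Sstr5 takes the larger share in the somatotrope library (51.6% and 89.6%) and Sstr1 takes a larger share in the lactotrope than in the somatotrope library (55.9% against 7.43%, 28.9% against 9.73%).

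Gpr101 (chromosome X, 54749845 to 54756934, minus strand, mm9) was listed at 0 in all 6 libraries, including somatotrope 1, which had the most genes above 0. No fold or test could be given for it. By level, the order of the members in somatotrope 1 was Ghrhr, Sstr5, Sstr3, Sstr2, Sstr1 and Ghsr, and in lactotrope 1 it was Ghrhr, Sstr1, Sstr3, Sstr5, Sstr2 and Ghsr. In somatotropes Ghrhr had the highest level in all 3 libraries, followed by Sstr5 in somatotropes 1 and 2 and by Ghsr in somatotrope 3. In somatotropes the range of Ghrhr (22.6 to 110 FPKM) lay above that of Sstr5 (0 to 7.92 FPKM). The ranges of the other 5 receptors with any value overlapped one another in both cell types. In lactotropes the range of Ghrhr (0 to 9.05 FPKM) took in all of theirs. These ranges run across libraries of unequal level, so they do not test the order within a library.

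**Figure D3:**
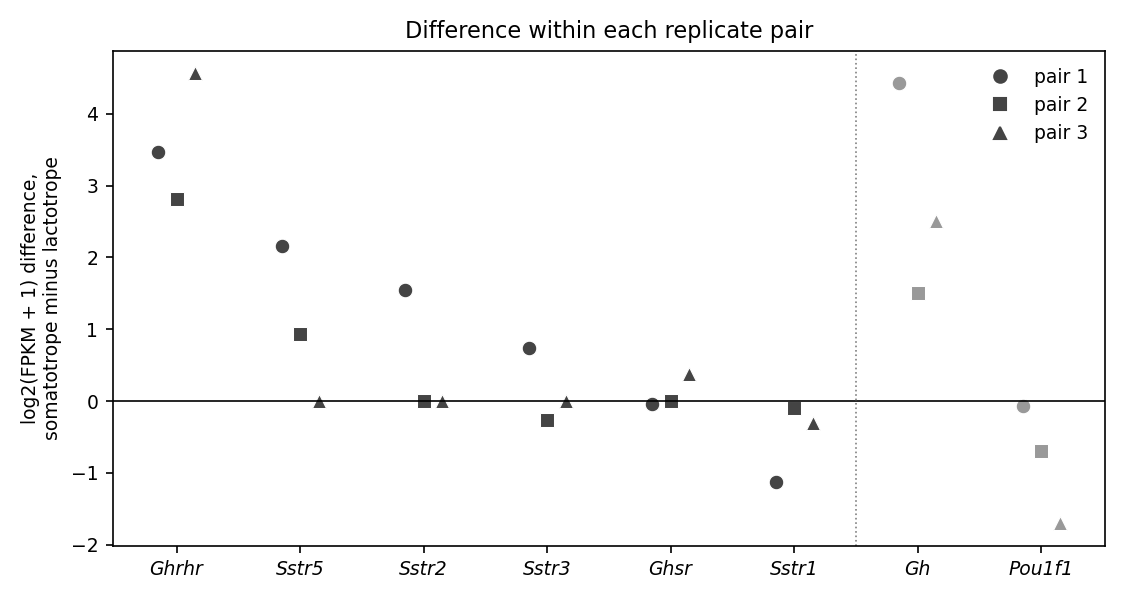
Difference in log2(FPKM + 1), somatotrope minus lactotrope, within each replicate pair (shape) for the 6 receptors with any value and, right of the dotted line, for Gh and Pou1f1. Ghrhr is above 0 by 2.82 to 4.56 in all 3 pairs, Sstr1 and Pou1f1 are below 0 in all 3, and Sstr5 is above 0 in pairs 1 and 2 and at 0 in pair 3.

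The ligands were near or at 0, as far as these libraries reach. Sst, which encodes somatostatin, was listed at 0 in all 6 libraries. Ghrh and Ghrl, which encode GHRH and ghrelin, were above 0 in somatotrope 1 alone, at 0.132 and 0.0648 FPKM. Mboat4, the enzyme that acylates ghrelin so that it can bind its receptor, reached at most 0.555 FPKM (lactotrope 1), and Cort, which encodes the somatostatin relative cortistatin, at most 0.228 FPKM in the same library. None of these 5 genes had a mean of 1 FPKM.

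Of 12 receptors related to the members, 9 were above 0 in some library and 1 was tested. This was Adcyap1r1, the receptor for pituitary adenylate cyclase-activating peptide and a relative of Ghrhr, with 0.977, 3.50 and 0.891 FPKM in somatotropes 1 to 3 and 0.783, 1.71 and 0.00125 FPKM in lactotropes 1 to 3. It was higher in the somatotrope library in all 3 pairs, as were 22.9% of tested genes, and did not pass (limma adjusted p = 1.00). Among those below a mean of 1 FPKM, Ntsr2, a neurotensin receptor, had 0.619, 0.519 and 3.05 FPKM in somatotropes 1 to 3, and 0.183 and 0.359 FPKM in lactotropes 1 and 2 with a listed 0 in lactotrope 3. Its groups did not overlap (log2 difference 0.88, exact permutation p = 0.1). The share of genes below that mean with such a separation was not computed. Sctr, the secretin receptor, was higher in the somatotrope library in all 3 pairs with overlapping groups (log2 difference 0.44). Vipr1 and Vipr2, the receptors for vasoactive intestinal peptide, reached at most 0.294 and 0.646 FPKM, far below the lowest somatotrope level of Ghrhr (22.6 FPKM).

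No gene of the downstream lists below passed limma's test with or without the block. In the stimulatory cyclic AMP list 16 of 21 genes were tested, 3 were higher in somatotropes and 2 in lactotropes in all 3 pairs (over all tested genes, 22.9% and 11.2%), and the median log2 difference was 0.04, beside 0.18 over all tested genes. The list median was -0.15 under median-ratio scaling and -0.14 under quantile normalization, where that of all genes was 0.047 and 0.0040. Gnas, the stimulatory G protein subunit that Ghrhr couples to, was the most abundant of them, at 673, 808 and 886 FPKM in somatotropes 1 to 3 and 630, 533 and 523 FPKM in lactotropes 1 to 3. Its groups did not overlap, as for the 2.51% of tested genes with all somatotropes above all lactotropes. The log2 difference of Gnas was 0.48 (SE 0.64). Prkar2b, a regulatory subunit of protein kinase A, had 48.4, 5.90 and 2.54 FPKM in somatotropes 1 to 3 and 12.4 and 2.67 FPKM in lactotropes 1 and 2, with a listed 0 in lactotrope 3. Its log2 difference was 1.54 (SE 1.07), above 0 in all 3 pairs with overlapping groups. Adcy2, an adenylate cyclase, had the same order within pairs, with a log2 difference of 1.06 (SE 0.84), and Adcy7, another one, the opposite order with -0.61 (SE 0.72). Adcy7 was highest in lactotrope 2 (4.70 FPKM), the library in which the leukocyte markers summed highest. The part of leukocyte transcripts in its difference was not tested.

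In the inhibitory Gi/o list 9 of 11 genes were tested, with a median log2 difference of 0.32, beside 0.18 over all tested genes. In all 3 pairs, 2 were higher in somatotropes and 0 in lactotropes (over all tested genes, 22.9% and 11.2%). Those 2 were Gnai3, an inhibitory G protein subunit, with a difference of 0.66 (SE 0.64), and Kcnj6, a G protein-gated potassium channel subunit, with 0.48 (SE 0.70). The median was -0.20 without somatotrope 1 and -0.27 without lactotrope 3. In the Gq and phospholipase C list, the branch used by the ghrelin receptor, 8 of 11 genes were tested with a median of 0.12. Prkca (0.29) and Gna11 (0.14) were higher in somatotropes in all 3 pairs, as were 22.9% of tested genes. Itpr3, a calcium release channel whose mean was below 1 FPKM, went the other way without overlap, at 0.129, 0.123 and 0.131 FPKM in somatotropes 1 to 3 and 0.555, 0.449 and 0.212 FPKM in lactotropes 1 to 3 (log2 difference -0.31, exact permutation p = 0.1). How many genes below that mean separate in this way was not computed. The median of this list was below 0 under median-ratio scaling (-0.043) and quantile normalization (-0.072).

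Of 7 genes for receptor accessory proteins and desensitization, 5 were tested, with a median of 0.38 (-0.19 over all 7). In all 3 pairs, 1 was higher in somatotropes (Adrbk2, a receptor kinase) and 2 in lactotropes (over all tested genes, 22.9% and 11.2%). Arrb2, a beta-arrestin that binds activated receptors, had 2.16, 10.4 and 8.07 FPKM in somatotropes 1 to 3 and 2.30, 35.5 and 15.2 FPKM in lactotropes 1 to 3, a log2 difference of -0.86 (SE 0.87). Adrbk1, another receptor kinase, was at 4.81 to 6.47 FPKM in somatotropes and 6.55 to 14.7 FPKM in lactotropes, without overlap, as for 1.15% of tested genes with all lactotropes above all somatotropes. Both were highest in lactotrope 2, the library in which the 5 leukocyte markers summed highest, and the part of leukocyte transcripts in this difference was not tested. In the list of Gh axis factors, the 4 genes reported were all tested and had a median of -0.023. Gh (2.81) and Foxo1 (0.78), a forkhead transcription factor, had the higher level in the somatotrope library of each pair, as had 22.9% of tested genes. Pou1f1 (-0.82) and Neurod4 (-0.90), a neurogenic factor, were higher in lactotropes in all 3 pairs, as were 11.2% of tested genes.

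**Figure D4:**
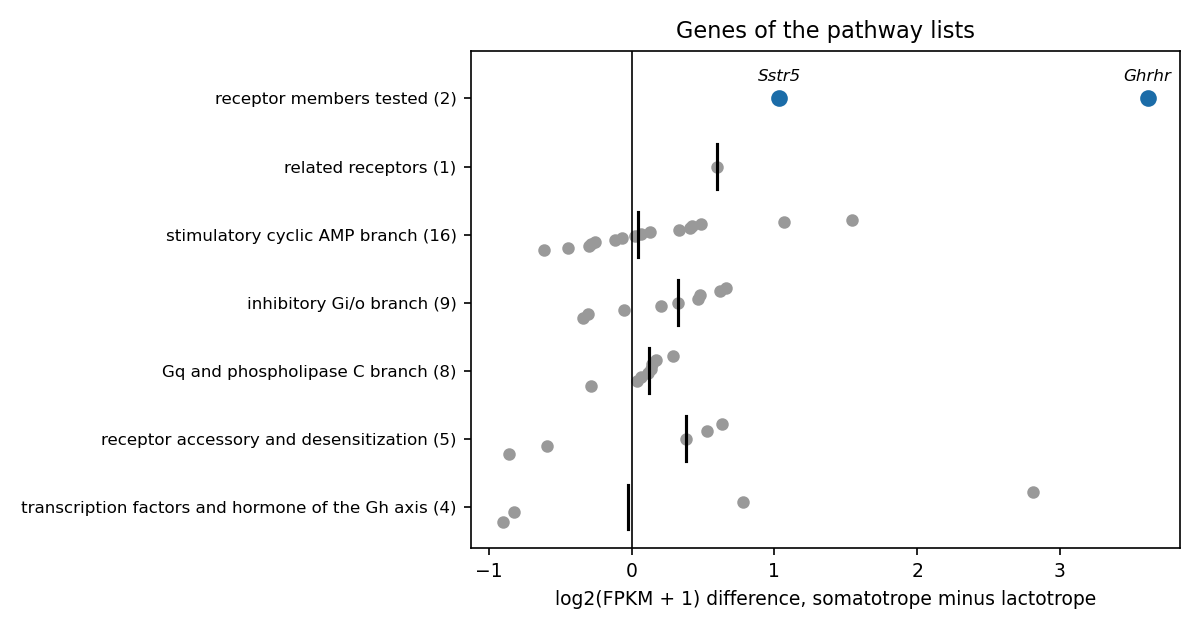
Difference in log2(FPKM + 1), somatotrope minus lactotrope, of each tested gene (points) in the pathway lists, with the number tested in brackets and a black bar at the list median, beside the 2 tested receptors. Ghrhr (3.61) lies beyond every other point, Gh (2.81) being the nearest, while the median of the cyclic AMP list is at 0.04 and that of the Gi/o list at 0.32.

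The genes whose profile over the 6 libraries was most like that of Ghrhr were found by the root mean square distance between log2(FPKM + 1) profiles, each centred on its own mean. The nearest 3 of all tested genes were Arhgap36 at a distance of 0.85, Penk, the enkephalin precursor, at 0.99, and Dennd2d at 1.02, against a root mean square of 2.17 for the profile of Ghrhr itself. Arhgap36 had 21.2, 11.4 and 4.46 FPKM in somatotropes 1 to 3 and 6.83, 1.15 and a listed 0 FPKM in lactotropes 1 to 3, an order that overlapped between the groups. For Sstr5, the nearest were Wisp1 at 0.22 and Dhrs2 and 2010005H15Rik, both at 0.24, against 1.09 for Sstr5 itself. All 3 were highest in somatotrope 1, as Sstr5 was, which follows from choosing them by nearness to its profile.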

How the data were processed

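The values are FPKM in 1 table that the authors deposited, with 30399 transcripts as rows and the 6 libraries as columns. Per the labels' protocols, cells were sorted into Trizol LS, and a NuGen Ovation V2 kit amplified the RNA. Build mm9, TopHat, edgeR and bcl2fastq (2.17.1.14) are named in the submitters' processing notes. The sources used here do not give how fragments were counted. FPKM are not counts, so no count test was run, and a few abundant transcripts lower all others in a library. The 889 rows without a symbol were left out.

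The 11642 genes whose mean reached 1 FPKM were tested as log2(FPKM + 1). The test was that of limma (3.58.1, under R 4.3.3) with a mean-variance trend, and its p-values were adjusted after Benjamini-Hochberg with a threshold of 0.05. Of the 7 receptors, Ghrhr and Sstr5 passed this filter, Sstr5 through somatotrope 1, where it was high, and single genes and ratios had two-sided exact permutation tests. Same-numbered libraries deviated together from their group means (correlations of 0.763, 0.613 and 0.341 over genes in replicates 1, 2 and 3). A second fit took this number as a block. Differently numbered libraries were not put through this check. In plain log2 levels, somatotropes 1 and 2 correlated most with the lactotrope of their own number (0.930 and 0.894). Somatotrope 3 correlated less with lactotrope 3 (0.782) than with lactotrope 2 (0.848). The pairing was inferred from the replicate numbers in the titles, which do not say that same-numbered libraries belong together. For replicate 3 these values do not single it out. The fit was also run on simulated data of 11642 genes, with changes added on the scale of log2(FPKM + 1). It recovered 0% of 4-fold changes on that scale with or without the block. Of 16-fold changes it recovered 64.8% without it and 79.8% with it. For low genes such a change is a larger fold in FPKM. The simulated noise was normal and independent, with each gene's residual spread in the block fit, and listed zeros were not modelled. No 2 libraries were duplicates (at most 2.35% of genes within 1% of each other).

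Coding sequences came from GENCODE M21 transcripts (GRCm38) matched by RefSeq accession (9 of 9 rows), and coordinates from the deposited table (mm9). Named are the members, Gh and Prl, marker genes, up to 4 genes per list, and the 3 nearest profiles. The genes of a list were taken by size of difference among those tested and of one sign in all pairs. Mrap2, Vipr1 and Vipr2, and the untested genes Ntsr2, Sctr and Itpr3, were named after their values were seen. The list of Gh axis factors was cut to 4 genes after its values were seen, because 1 gene is not reported here. The members and lists were chosen with earlier results of these data known.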

Additional observations from a re-analysis of the deposited data

How the results depend on the processing

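The FPKM table gives no depth for 4 of 6 libraries, so how far low receptors could be told from 0 there is unknown. No gene was called in the fit reported. Counts of called genes were 9 with array weights, 43 with array weights and the replicate block, 55 with the block on replicate pairs 2 and 3 only (chosen after seeing the data), 0 to 3 with 1 library left out (3 without somatotrope 1) and 0 in every other setting run. For Ghrhr every somatotrope library lay above every lactotrope library, so leaving out libraries, weighting them or changing the pseudocount could not turn its sign. Nor could the block, the filters or the intensity trend. The count that follows is therefore not a test of the direction. The log2 difference of Ghrhr kept its sign in all 20 alternatives (2.73 to 4.86). It passed in 3 of them, at 3.00 (limma adjusted p = 0.0117) with array weights, 3.33 (limma adjusted p = 0.00812) with array weights and the block, and 3.69 (limma adjusted p = 0.0119) in pairs 2 and 3 with the block, and limma's adjusted p was 0.107 to 1.00 in the others. Without the block, lactotrope 2 had an array weight of 6.24 against 0.292 and 0.492 for lactotropes 1 and 3. With all libraries weighted equally, the replicate block changed no call, but moved the genes at an unadjusted p under 0.05 from 112 to 1271. With array weights or in pairs 2 and 3 only it raised the counts of calls from 9 to 43 and from 0 to 55.

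With 1 library left out, the difference ran from -0.84 to 0.10 for Sstr1 (above 0 without lactotrope 1), -0.16 to 0.85 for Sstr2 (below 0 without somatotrope 1), -0.53 to 0.56 for Sstr3 (below 0 without somatotrope 1 or lactotrope 3), 0.22 to 1.80 for Sstr5, and -0.26 to 1.88 for the ratio of Ghrhr to Gh (below 0 without lactotrope 3; 2.04 and 1.21 with pseudocounts of 0.1 and 0.5). Sstr3 also turned to -0.15 with a pseudocount of 0.1 and to -0.13 in pairs 2 and 3 only, with or without the block. List medians ran from -0.41 to 0.70 (cyclic AMP), -0.27 to 0.96 (Gi/o), -0.38 to 0.76 (Gq), -0.26 to 0.62 (accessory proteins) and -0.88 to 0.80 (Gh axis). At a mean of at least 5 FPKM, the medians for Gi/o, accessory proteins and Gh axis were -0.31, -0.59 and -0.82, with fewer genes tested. Ghsr, Sstr1, Sstr2 and Sstr3 have no value under array weights, without the intensity trend or at a mean of at least 5 FPKM, nor has Sstr5 at 5 FPKM, because they were not in those fits, and Gpr101 has none at all. The cyclic AMP and Gq medians were -0.15 and -0.043 under median-ratio scaling and -0.14 and -0.072 under quantile normalization, and the accessory median was -0.19 with no filter on low values. Where not said, the cause was not tested.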
